A study of Mus musculus with 10 samples.

Results

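A set of enzymes that protects cells from oxidants, aldehydes and spent haem were followed in 2 mouse tumour lines. The members are Xdh, Aldh3a1, Gsto1, Glrx, Nqo1, Hmox1, Gclc, Gclm, Txnrd1 and Srxn1. Each was found by matching its symbol to an Ensembl row, which gave 10 of 10 members among 60676 rows of the count table. The members were chosen by their CPM levels and fold changes in earlier results of these libraries, in all 5 groups. Their own levels and fold changes are therefore a description, and no p-value is printed for them. A member is named as called where its adjusted p was under 0.05. How many passed a threshold in the main fits is given beside the share or number of all genes that did. Neither these calls nor these counts support anything.

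MC38 is a colon carcinoma line and B16 a melanoma line. Messenger RNA was sequenced in 10 libraries that form 5 groups of 2. Every group carried a knockdown of Sdc1 and, by the sample labels, had been stimulated with interferon gamma at 10 ng/ml, for 24 h. Sdc1 encodes syndecan-1, a heparan sulphate proteoglycan of the cell surface. The MC38 groups were the knockdown alone, the knockdown with the c30 mutant of Sdc1 and the knockdown with the ect mutant. B16 had the knockdown and, as its partner group, the knockdown plus wild-type Sdc1. The sources used here do not give what c30 and ect change in the protein, the knockdown sequence, the vector or the number of clones. Unmodified cells, cells without interferon gamma and an empty-vector control are not analysed here. Whether replicates are separate cultures is not labelled, and p-values reflect only the spread between these libraries, which may be technical.

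The enzymes work in linked systems. Glutathione, a small thiol, is made by glutamate-cysteine ligase and used by glutaredoxins and glutathione transferases, whereas the thioredoxin system takes its electrons from NADPH through thioredoxin reductase. The transcription factor NRF2 (gene Nfe2l2), held in check by KEAP1, switches on many of these genes through a short DNA motif called the antioxidant response element. Aldehyde dehydrogenases oxidise the reactive aldehydes that lipid peroxidation leaves behind. Xanthine dehydrogenase makes uric acid in purine breakdown and can itself release oxidants.

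Total counts ran from 11349447 to 15041133 per library. A count of 0 therefore allowed at most 0.199 to 0.264 CPM (a gene's count scaled to 1000000 counts in its library), taken as 3 counts and covering counting error only. Sdc1 itself was at 24.5 and 29.99 CPM in the MC38 knockdown, 97.0 and 99.5 CPM with c30, and 22.4 and 25.2 CPM with ect. The ect libraries thus overlapped the knockdown at this gene. In B16 it was at 40.7 and 43.1 CPM in the knockdown and 71.1 and 56.9 CPM with the wild-type form. Melanocyte markers summed to between 13798 and 14613 CPM in B16 and to between 9.94 and 16.5 CPM in MC38. Of 13 epithelial markers, 1 or 2 reached 1 CPM in any MC38 library, and Epcam stayed between 0.151 and 0.527 CPM there, so few of these markers were seen in this carcinoma line. Their sum was 17.1 and 17.1 CPM in the MC38 knockdown, 14.1 and 11.1 CPM with c30, and 10.5 and 10.97 CPM with ect. Leukocyte markers summed to between 2.03 and 4.96 CPM over all libraries. The 10 endothelial and fibroblast markers summed to 146 and 155 CPM in the MC38 knockdown, 108 and 115 CPM with c30, and 111 and 104 CPM with ect. Most of that sum came from Pdgfrb and Pdgfra, but other genes of this set were seen as well. The number of them at 1 CPM or more was 6 in knockdown replicate 2 and 5 in every other library of MC38. Thy1 and Kdr stayed at or below 0.264 CPM in MC38. Both sums moved in the same direction as Xdh and Aldh3a1, and their part in the results was not tested. In bulk RNA, fewer cells with a transcript and less transcript per cell cannot be told apart.

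**Figure D1:**
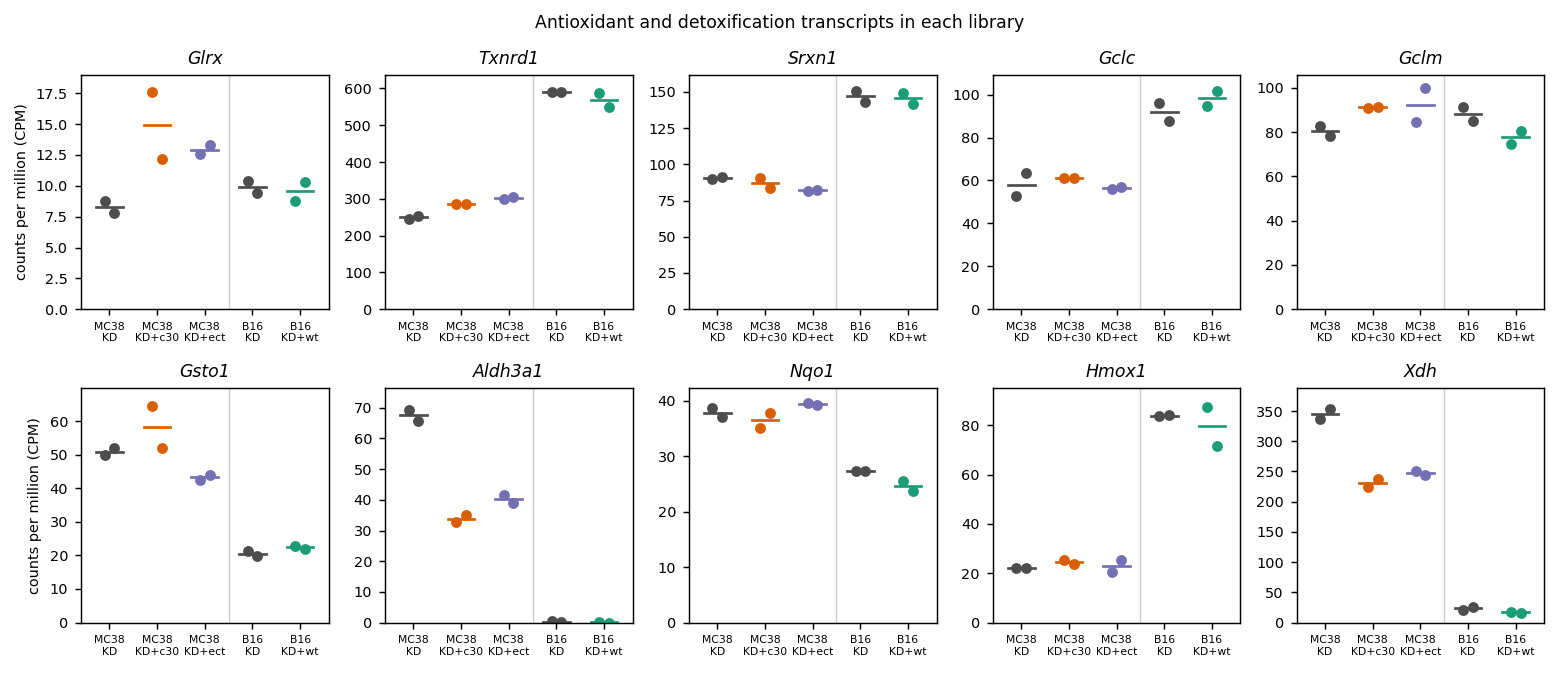
CPM (vertical axes from 0) of the 10 members in each library, 1 point per library and a bar at the mean of the 2 libraries of a group (KD, knockdown). Xdh and Aldh3a1 are highest in the MC38 knockdown and near the bottom of their axes in B16, whereas Hmox1 and Txnrd1 are higher in all 4 B16 libraries than in any MC38 library.

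The aldehyde and purine enzymes set the knockdown of MC38 apart from both groups with a mutant form. Aldh3a1 encodes an aldehyde dehydrogenase that oxidises medium-chain and aromatic aldehydes. It was at 69.4 and 65.7 CPM in the MC38 knockdown, 32.8 and 34.9 CPM with c30, and 41.5 and 39.0 CPM with ect. All 4 libraries with a mutant form lay below both knockdown libraries, and both c30 libraries lay below both ect libraries. The log2 fold change against the knockdown was -0.99 (SE 0.087, n = 2 per group) with c30 and -0.74 (SE 0.083) with ect. Xdh encodes xanthine dehydrogenase, which turns hypoxanthine to xanthine and xanthine to uric acid. It was at 337 and 353 CPM in the MC38 knockdown, 224 and 237 CPM with c30, and 251 and 244 CPM with ect. The knockdown libraries were again the highest, with no overlap. The log2 fold change was -0.58 (SE 0.048) with c30 and -0.47 (SE 0.048) with ect, which is 1.49-fold and 1.38-fold lower. For both genes the c30 value was the lower one, and the difference between c30 and ect was -0.25 (SE 0.091) for Aldh3a1 and -0.11 (SE 0.049) for Xdh on the log2 scale, and neither was called.

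Glrx and Txnrd1 differed from the knockdown the other way. Glrx encodes glutaredoxin-1, which uses glutathione to free proteins from mixed disulphides. It was at 8.78 and 7.76 CPM in the MC38 knockdown, 17.6 and 12.2 CPM with c30, and 12.6 and 13.3 CPM with ect. All 4 libraries with a mutant form were above both knockdown libraries, and the c30 libraries differed most from each other. The log2 fold change was 0.85 (SE 0.17) with c30 and 0.66 (SE 0.17) with ect. Without c30 replicate 1 the c30 value was 0.57, and Glrx was then no longer called. The ect call held in 8 of 11 alternatives and was lost without knockdown replicate 2, with DESeq2 and in the fit of all 10 libraries, with values between 0.57 and 0.75 over the alternatives. These values rest on 103 to 200 counts per library, the fewest of any member in MC38. Txnrd1 encodes cytosolic thioredoxin reductase, a selenoprotein. It was at 245 and 254 CPM in the knockdown, 286 and 286 CPM with c30, and 299 and 305 CPM with ect. The 3 groups did not overlap, and ect was the highest. The log2 fold change was 0.20 (SE 0.047) with c30 and 0.29 (SE 0.047) with ect. The c30 call of Txnrd1 was lost without either c30 library.

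The subunits of the enzyme that starts glutathione synthesis gave different values in MC38. Gclm is the modifier subunit of glutamate-cysteine ligase, the rate-limiting enzyme of glutathione synthesis, and Gclc is its catalytic subunit. Gclm was at 82.7 and 78.2 CPM in the MC38 knockdown, 91.0 and 91.5 CPM with c30, and 84.5 and 99.7 CPM with ect. All libraries with a mutant form were above the knockdown, but ect replicate 1 by only a small margin. The log2 fold change was 0.19 (SE 0.065) with c30 and 0.21 (SE 0.064) with ect, and the latter was 0.09 without ect replicate 2. Gclm was called with ect in 5 of 11 alternatives, and not without ect replicate 2, without knockdown replicate 2, with DESeq2, without a filter on low counts, or in the fits of all 10 or only 4 libraries. Gclc was at 52.9 and 63.3 CPM in the knockdown, 61.1 and 61.0 CPM with c30, and 56.1 and 57.2 CPM with ect. The knockdown libraries of Gclc spanned the other 4. Its log2 fold change was 0.08 (SE 0.078) with c30 and -0.02 (SE 0.078) with ect. Exons of Gm17494 on the opposite strand cover 4.71% of the exon bases of Gclm, and the sources used here do not say whether reads were counted by strand.

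Gsto1 had the largest log2 difference between the mutant forms among the members. It encodes an omega-class glutathione transferase. It was at 49.9 and 51.9 CPM in the knockdown, 64.4 and 52.1 CPM with c30, and 42.5 and 44.1 CPM with ect. The c30 libraries were above the knockdown, c30 replicate 2 only just, and the ect libraries were below it. The log2 difference of c30 from ect was 0.42 (SE 0.085). It was 0.27 without c30 replicate 1 and was then not called. Against the knockdown the values were 0.20 (SE 0.084) with c30 and -0.22 (SE 0.085) with ect.

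Srxn1, Nqo1 and Hmox1, which are much-used readouts of NRF2 activity, lay close to the knockdown with both mutant forms. Srxn1 encodes sulfiredoxin, which repairs overoxidised peroxiredoxins. It was at 89.6 and 91.6 CPM in the knockdown, 90.8 and 83.8 CPM with c30, and 81.8 and 82.4 CPM with ect, the last being the lowest. Nqo1 encodes a quinone reductase and ranged from 35.2 to 39.5 CPM over the 6 MC38 libraries. Hmox1 encodes haem oxygenase-1, which opens the haem ring, and ranged from 20.6 to 25.2 CPM. The largest log2 fold change of these 3 genes against the knockdown was that of Hmox1 with c30, at 0.14 (SE 0.12), and the lowest was that of Srxn1 with ect, at -0.13 (SE 0.061).

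Over all genes tested with c30, 7.75% passed an adjusted p of 0.05 in edgeR's quasi-likelihood test, 3.3% higher and 4.45% lower. Of the 10 members 4 passed, Glrx and Txnrd1 higher and Xdh and Aldh3a1 lower. With ect, 8.16% of all genes passed, 3.55% higher and 4.61% lower, and 5 members passed, Glrx, Txnrd1 and Gclm higher and Xdh and Aldh3a1 lower. Both comparisons share the knockdown libraries. Between c30 and ect, 0.299% of genes passed, and among the members Gsto1 did. With c30 the groups did not overlap for 7 of 10 members, against 47.8% of all genes. Of these 5 were higher, against 23%, and 2 lower, against 24.8%. With ect the groups did not overlap for 8 members, against 48.4%, 4 of them higher, against 22.5%, and 4 lower, against 25.9%. Between c30 and ect they did not overlap for 7, against 37.9%, 3 higher, against 20.6%, and 4 lower, against 17.3%. Since these contrasts chose the members, nothing is read from these counts.

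**Figure D2:**
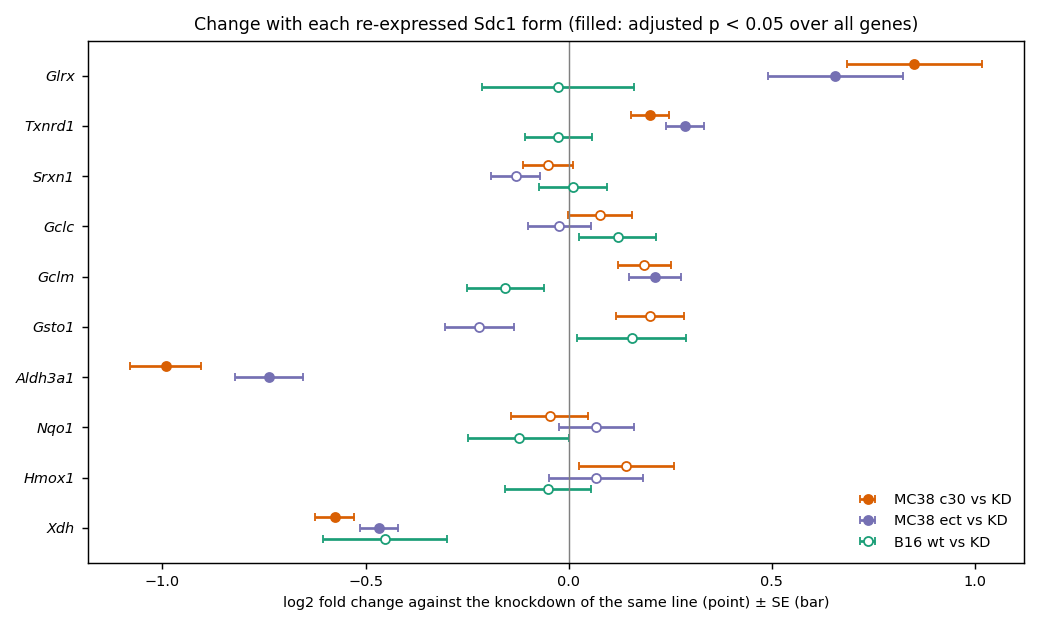
Log2 fold change of each member against the knockdown of its own line (horizontal axis), with bars of 1 SE, for c30 and ect in MC38 and wild-type Sdc1 in B16. Filled points passed an adjusted p of 0.05 over all genes. Glrx lies to the right and Aldh3a1 and Xdh to the left with both MC38 forms, and Aldh3a1 has no B16 point because it was too low to test there.

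Promoter windows were searched for the motif that NRF2 is known to bind. RefSeq windows of build GRCm38.p6, from 250 bases before to 50 bases after a transcription start, were given for 6 of the 10 members in 9 windows. The 6 are Gclm, Glrx, Gsto1, Nqo1, Srxn1 and Txnrd1. The 4 windows below belong to Txnrd1, Gclm and Glrx, the members with an entry that were higher with both mutant forms, and to Srxn1, which was not. All 4 lie on the plus strand and are written 5′ to 3′. Capitals mark the antioxidant response element, searched as TGACNNNGC or its reverse complement GCNNNGTCA, and the AP-1 motif TGANTCA, which reads the same on both strands. The AP-1 search was added after the data had been seen. The 2 patterns can overlap in a TGAC start, but as spelled here no capital run is shared by both.
Txnrd1, chr10:82858956-82859255: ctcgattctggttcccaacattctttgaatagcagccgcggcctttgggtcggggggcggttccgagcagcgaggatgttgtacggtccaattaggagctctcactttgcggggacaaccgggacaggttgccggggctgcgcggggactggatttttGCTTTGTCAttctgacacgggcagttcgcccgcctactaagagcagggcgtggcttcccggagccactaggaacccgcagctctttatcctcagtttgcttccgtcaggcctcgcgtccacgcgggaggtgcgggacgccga
Gclm, chr3:122245307-122245606: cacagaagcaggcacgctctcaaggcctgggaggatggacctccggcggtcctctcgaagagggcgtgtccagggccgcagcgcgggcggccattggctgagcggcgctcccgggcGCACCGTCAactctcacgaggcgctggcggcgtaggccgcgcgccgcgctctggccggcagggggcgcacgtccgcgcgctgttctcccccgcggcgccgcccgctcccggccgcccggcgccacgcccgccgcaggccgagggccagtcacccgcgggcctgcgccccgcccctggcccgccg
Glrx, chr13:75839635-75839934: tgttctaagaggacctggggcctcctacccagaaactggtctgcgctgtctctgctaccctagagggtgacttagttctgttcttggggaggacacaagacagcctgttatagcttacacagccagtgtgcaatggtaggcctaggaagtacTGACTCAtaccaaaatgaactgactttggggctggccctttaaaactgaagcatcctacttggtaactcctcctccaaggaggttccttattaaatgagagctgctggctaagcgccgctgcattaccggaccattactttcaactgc
Srxn1, chr2:152105274-152105573: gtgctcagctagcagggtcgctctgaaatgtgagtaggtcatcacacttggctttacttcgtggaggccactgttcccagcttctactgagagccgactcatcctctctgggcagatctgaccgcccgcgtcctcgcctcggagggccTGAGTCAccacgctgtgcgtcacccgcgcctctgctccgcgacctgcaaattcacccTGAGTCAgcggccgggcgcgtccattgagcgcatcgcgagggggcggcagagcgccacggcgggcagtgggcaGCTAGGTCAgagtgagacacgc

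The response element was matched once each in Txnrd1 (GCTTTGTCA), Gclm (GCACCGTCA) and Srxn1 (GCTAGGTCA), in each case on the minus strand. The AP-1 motif was matched 2 times in Srxn1 (TGAGTCA) and once in Glrx (TGACTCA). The Srxn1 match nearer the transcription start reads on as TGAGTCAGC, with G where the response element pattern TGACNNNGC has C. Other spellings of the element were not searched, so this site is not counted for it. Neither pattern was found in the windows of Nqo1 and Gsto1 or in the other 2 of Txnrd1, which says only that these letters are not in those windows. Of 32851 windows in the RefSeq table, 12.4% held the response element pattern and 7.81% the AP-1 pattern. The element's pattern was thus found in Txnrd1 and Gclm, whose libraries with a mutant form were all above the knockdown. It was not found in the windows of Glrx, where this held too, and was found in Srxn1, where this did not hold. Gclm was not called with c30. The fold changes had chosen the members, so nothing is read from setting them beside the pattern. A match is a description of the letters and no measure of binding.

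In B16 the knockdown and the wild-type form were close for most members. Xdh was at 20.6 and 26.02 CPM in the B16 knockdown and at 17.1 and 16.3 CPM with wild-type Sdc1. Both wild-type libraries were below both knockdown libraries. The log2 fold change was -0.45 (SE 0.15, n = 2 per group). Aldh3a1 had 5 and 2 counts in the knockdown libraries and 3 and 0 counts in the wild-type libraries, which is at or near the floor of 3 counts, and no fold is given. Glrx, at 10.4 and 9.40 CPM in the knockdown, was at 8.79 and 10.3 CPM with the wild-type form, so the groups overlapped. Txnrd1 was at 589 and 590 CPM in the knockdown and at 587 and 551 CPM with the wild-type form.

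The glutathione genes of B16 lay apart by small steps. Gclm was at 91.3 and 84.9 CPM in the knockdown and at 74.7 and 80.5 CPM with wild-type Sdc1, a log2 fold change of -0.16 (SE 0.095). Gclc was at 96.3 and 87.9 CPM in the knockdown and at 94.9 and 102 CPM with the wild-type form (0.12, SE 0.094), and its groups overlapped. Gsto1 was at 21.3 and 19.8 CPM in the knockdown and at 22.9 and 22.03 CPM with the wild-type form (0.15, SE 0.13). Gsto1 was the one member whose B16 libraries were all higher with the wild-type form.

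The remaining NRF2 readouts stayed close in B16. Hmox1 was at 83.9 and 84.1 CPM in the knockdown and at 87.4 and 71.8 CPM with the wild-type form. The wild-type libraries lay on either side of the knockdown. Nqo1 was at 27.3 and 27.4 CPM in the knockdown and at 25.6 and 23.7 CPM with wild-type Sdc1. Srxn1 was at 151 and 143 CPM in the knockdown and at 149 and 142 CPM with the wild-type form, a log2 fold change of 0.01.

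Across all genes of this comparison, 0 of 14336, or 0%, passed edgeR's quasi-likelihood test at an adjusted p of 0.05, and 791 had an unadjusted p under 0.05. Of the 9 members tested 0 passed, with DESeq2 as well, and Xdh alone had an unadjusted p under 0.05. Xdh was called without wild-type replicate 1, at -0.48. Groups did not overlap for 5 of the 9, against 35.1% of all genes, with 1 higher, against 13.9%, and 4 lower, against 21.1%. Sdc1 itself, at 0.64 (SE 0.12, adjusted p 0.269), did not pass in this test either. The common coefficient of variation between libraries of a group was 8.68% in the B16 fit and 4.84% in the MC38 fit. The lack of calls in B16 thus does not show that nothing changed.

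The B16 effect of wild-type Sdc1 was also set against the MC38 effect of c30 in 1 fit of all 10 libraries. This test compares different lines and different forms of Sdc1 at the same time, and these cannot be told apart. Of all 16877 genes 0.284% passed, and 1748 had an unadjusted p under 0.05. Of the 10 members 0 passed, and 3 had an unadjusted p under 0.05. Those 3 were Glrx, at -0.88 (SE 0.26), Gclm, at -0.34 (SE 0.12), and Txnrd1, at -0.23 (SE 0.087), on the log2 scale. The c30 values that chose the members enter this difference, so nothing is read from its sign.

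For most members the lines differed by more than the groups within a line, but not for Glrx and Gclm. Aldh3a1 had 1828 counts in the 2 MC38 knockdown libraries and 7 in the 2 B16 knockdown libraries. Its CPM level was 237-fold higher in MC38, with an exact 95% interval of 115 to 591 that covers counting error only. Xdh was 14.4-fold lower in B16, with a log2 difference of -3.85 (SE 0.088). Gsto1 and Nqo1 were lower in B16 as well, at -1.27 (SE 0.11) and -0.43 (SE 0.11).

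The haem, thioredoxin and sulfiredoxin genes were on the other side. Hmox1 was 3.89-fold higher in the B16 knockdown than in the MC38 knockdown, a log2 difference of 1.96 (SE 0.11). Txnrd1 was 2.43-fold higher (1.28, SE 0.062). Srxn1 and Gclc differed by 0.74 (SE 0.071) and 0.71 (SE 0.087) on the log2 scale. Gclm, at 0.17 (SE 0.083), and Glrx, at 0.30 (SE 0.19), were not called. Of all genes 68.2% were called between the lines, 33.8% higher in B16 and 34.3% lower, beside 8 of the 10 members, 4 in each direction. The knockdown libraries of the lines did not overlap for 10 of 10 members, against 84.4% of all genes, 6 higher in B16, against 40%, and 4 lower, against 44.4%.

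Per kilobase of exon, the order of the levels changed between the lines. In the MC38 knockdown, Xdh led at a mean of 37.6 CPM per kb, followed by Txnrd1 at 35.2, Aldh3a1 at 34.8 and Srxn1 at 32.1 CPM per kb. The libraries of Txnrd1 and Aldh3a1, 34.6 and 35.8 against 35.7 and 33.8 CPM per kb, overlapped, so their order is not settled. Gsto1 at 25.2 and Nqo1 at 24.4 CPM per kb followed, then Gclc at 15.4, Gclm at 12.8, Hmox1 at 12.7 and Glrx at 1.51 CPM per kb. In the B16 knockdown, Txnrd1 led at 83.2 CPM per kb, followed by Srxn1 at 52.1, Hmox1 at 48.0, Gclc at 24.5, Nqo1 at 17.6, Gclm at 14.0 and Gsto1 at 10.1 CPM per kb. Xdh was at 2.54, Glrx at 1.80 and Aldh3a1 at 0.143 CPM per kb. Xdh and Aldh3a1 were thus among the 3 highest members in the MC38 knockdown and among the 3 lowest in the B16 knockdown.

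**Figure D3:**
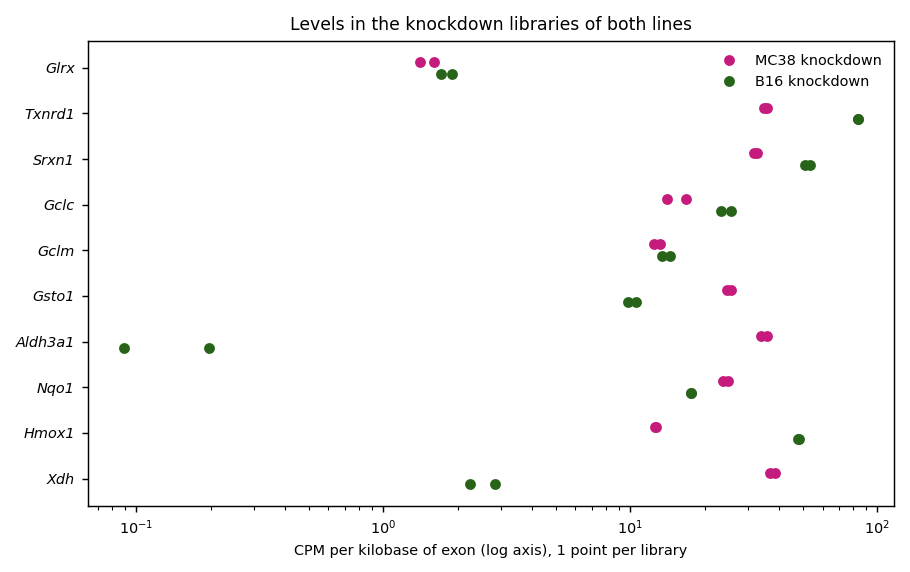
Level of each member in CPM per kilobase of exon (log axis) in the 2 knockdown libraries of MC38 and of B16, 1 point per library. Aldh3a1 and Xdh have the widest gaps between the lines, with means of 34.8 against 0.143 and 37.6 against 2.54 CPM per kb, and the points of Gclm and Glrx of both lines lie close together.

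Other genes of the same systems were taken from 9 lists by function, 177 genes in the table, none of them a member. These lists too were drawn up with earlier results of these data known, so their shares are no independent support. With c30, 18 of the 131 tested passed, or 13.7%, 6 higher and 12 lower, beside 7.75% of all genes. Their median log2 fold change was -0.01, against 0.00 for all genes. With ect, 19 of the 131 passed, or 14.5%, 5 higher and 14 lower, beside 8.16% of all genes, with a median of -0.02. The 2 counts fell without single libraries, to 4 without c30 replicate 1, to 7 without c30 replicate 2, and to 9 without ect replicate 2. Between c30 and ect 0 of the 131 passed in edgeR and 0 with DESeq2, and 12 had an unadjusted p under 0.05.

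The list of NRF2 regulators held 13 tested genes. With c30 0 of 13 passed, beside 7.75% of all genes, with 5 at an unadjusted p under 0.05. With ect 1 of 13 passed, or 7.69%, beside 8.16% of all genes. It was Sqstm1, which encodes p62, a protein that binds KEAP1 (log2 fold change -0.23, SE 0.043, adjusted p 6.13e-05). Nfe2l2 was at 66.6 and 63.7 CPM in the MC38 knockdown, 57.6 and 57.8 CPM with c30, and 57.4 and 59.4 CPM with ect, without passing (adjusted p 0.161 and 0.251). Keap1 ranged from 52.8 to 58.0 CPM over these 6 libraries.

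Of 21 other known NRF2 targets tested, 5 passed with c30, or 23.8%, all lower, beside 7.75% of all genes. With ect 6 passed, or 28.6%, 5 lower and 1 higher, beside 8.16% of all genes. Idh1, the cytosolic isocitrate dehydrogenase that makes NADPH, was at 131 and 132 CPM in the knockdown, 96.9 and 93.7 CPM with c30, and 90.6 and 91.0 CPM with ect. Its log2 fold change was -0.46 (SE 0.058, adjusted p 3.96e-09) with c30 and -0.52 (SE 0.058, adjusted p 2.98e-11) with ect. G6pdx, which opens the pentose phosphate pathway, fell by 0.19 (SE 0.059, adjusted p 0.0280) with c30 and by 0.32 (SE 0.059, adjusted p 5.57e-05) with ect on the log2 scale. Ugdh, a UDP-glucose dehydrogenase, fell by 0.20 (adjusted p 0.00189) and by 0.19 (adjusted p 0.00261). Ephx1, an epoxide hydrolase, fell by 0.68 (SE 0.16, adjusted p 0.00253) with c30. That call was lost without knockdown replicate 1 or c30 replicate 1.

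Of 13 genes of glutathione synthesis and use, 1 passed with c30, or 7.69%, and 2 with ect, or 15.4%, beside 7.75% and 8.16% of all genes. Chac1, which breaks glutathione down, fell by 0.45 (SE 0.072, adjusted p 2.67e-06) with c30 and by 0.37 (SE 0.071, adjusted p 0.000109) with ect. With ect Glo1 fell as well, by 0.22 (adjusted p 0.0486). Slc7a11, the cystine importer, was at 11.8 and 12.6 CPM in the knockdown, 8.63 and 9.40 CPM with c30, and 8.70 and 9.17 CPM with ect. It did not pass (adjusted p 0.107 and 0.0920), although no library with a mutant form reached the knockdown. Of 12 glutathione transferases 0 passed with c30, with 2 at an unadjusted p under 0.05, and Gstm1 fell by 0.53 (SE 0.15, adjusted p 0.0118) with ect. That Gstm1 call was lost with DESeq2 and without single libraries. Its log2 fold change ran from -0.76 to -0.30 over the settings, and the ect libraries were at 13.4 and 9.97 CPM.

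Of 13 other aldehyde dehydrogenases, 2 passed with each form, or 15.4%, all lower, beside 7.75% of all genes with c30 and 8.16% with ect. Aldh1l2, a mitochondrial folate enzyme, fell by 0.30 (SE 0.085, adjusted p 0.0144) with c30 and by 0.37 (SE 0.085, adjusted p 0.00153) with ect. Aldh3a2, which oxidises fatty aldehydes, fell by 0.22 (adjusted p 0.0171) with c30, and Aldh9a1 by 0.23 (adjusted p 0.00831) with ect. Aldh3a2 was at 84.7 and 87.2 CPM in the knockdown and at 74.4 and 72.5 CPM with c30, a smaller step than that of Aldh3a1.

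In the thioredoxin, glutaredoxin and peroxiredoxin list, 1 of 22 passed higher and 1 lower with each form. That is 9.09% of the list, beside 7.75% of all genes with c30 and 8.16% with ect. Txn1, the substrate of Txnrd1, rose by 0.18 (SE 0.043, adjusted p 0.00280) with c30 and by 0.15 (SE 0.043, adjusted p 0.0176) with ect. Prdx4, a peroxiredoxin of the endoplasmic reticulum, fell by 0.21 (adjusted p 0.0194) and 0.23 (adjusted p 0.00734). Both Txn1 calls were lost without single libraries, as were both Prdx4 calls. Of the other glutaredoxins, Glrx2 ranged from 18.8 to 25.4 CPM and Glrx3 from 97.2 to 110 CPM in MC38.

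Among 9 genes that remove or make superoxide and peroxide, Duox1, a hydrogen peroxide-producing oxidase, fell by 0.68 (SE 0.22, adjusted p 0.0401) with c30 and by 0.89 (SE 0.22, adjusted p 0.00379) with ect. Sod1 rose by 0.16 (adjusted p 0.0322) with c30, and Cat, which encodes catalase, fell by 0.38 (SE 0.086, adjusted p 0.00103) with ect. The c30 call of Duox1 was lost without any 1 of the 4 libraries compared. In the haem and iron list, Fth1, the ferritin heavy chain, rose by 0.15 (adjusted p 0.0152) and by 0.19 (adjusted p 0.000903). Tfrc, the transferrin receptor, rose by 0.22 (adjusted p 0.00159) and by 0.16 (adjusted p 0.0333), and Fech, which puts iron into haem, fell by 0.23 (adjusted p 0.0255) with c30. These were 3 of 12 haem and iron genes with c30, or 25%, and 2 of 12 with ect, or 16.7%. Of the 9 superoxide and peroxide genes 2 passed with each form, or 22.2%. Of all genes 7.75% passed with c30 and 8.16% with ect.

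Xdh has neighbours in purine breakdown and among the enzymes that use a molybdenum cofactor. Of 16 tested, 3 passed with c30, or 18.8%, and 1 with ect, or 6.25%, beside 7.75% and 8.16% of all genes. Suox, the sulphite oxidase, which shares the cofactor with Xdh, fell by 0.30 (SE 0.073, adjusted p 0.00300) with c30. Aprt, which salvages adenine, rose by 0.25 (SE 0.060, adjusted p 0.00257) with c30. Ampd2, an AMP deaminase, rose by 0.24 (SE 0.059, adjusted p 0.00301) with c30 and by 0.28 (SE 0.058, adjusted p 0.000408) with ect. Each of these 3 c30 calls was lost without 1 or more single libraries. Aox1, an aldehyde oxidase related to Xdh, ranged from 14.9 to 21.6 CPM in MC38 and did not pass.

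Most of these calls were lost when a single library was left out, which leaves 1 library in an arm and weakens the test. A lost call alone therefore cannot tell a weaker test from the part of 1 library, and this was not tested. Over the settings, the log2 fold change with c30 stayed between -0.24 and -0.22 for Fech, whereas that of Duox1 ran from -0.87 to -0.52. With c30, Idh1 and Chac1 were called in 11 of 11 settings, and with ect Idh1, G6pdx and Cat were. Of the 16 genes that the rule names with c30, 12 lost their call without c30 replicate 1, 10 without c30 replicate 2, and 6 each without knockdown replicate 1 or 2. Of the 16 named with ect, 8 lost it without ect replicate 2, 2 without ect replicate 1, 4 without knockdown replicate 1 and 6 without knockdown replicate 2. All of these genes kept their sign in every setting, and the adjusted p reached 0.636 for Fth1 with c30.

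**Figure D4:**
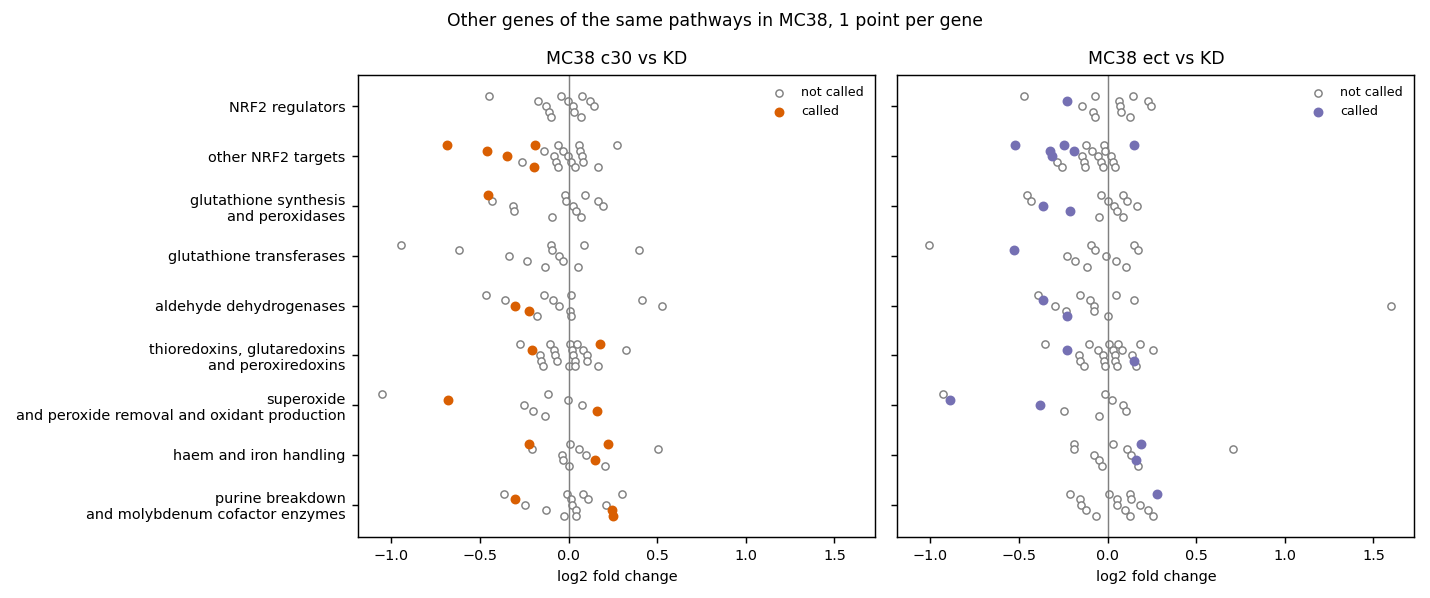
Log2 fold change (horizontal axis) of each tested gene of the 9 lists in MC38 with c30 (left) and ect (right) against the shared knockdown, 1 point per gene, filled where the adjusted p over all genes was under 0.05. Filled points lie left of 0 for 12 of 18 genes with c30 and 14 of 19 with ect, and the target list holds 5 and 6 of them.

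In B16, 0 of 141 listed genes passed with wild-type Sdc1 in edgeR, with 11 at an unadjusted p under 0.05, and 0 with DESeq2, beside 0% of all genes. Without wild-type replicate 1 there were 15 calls, and without wild-type replicate 2 there were 8. Between the lines, 120 of 149 listed genes passed, or 80.5%, 81 higher in B16 and 39 lower, beside 68.2% of all genes. Their median log2 difference was 0.35, against -0.01 for all genes. Nfe2l2 was at 185 and 192 CPM in the B16 knockdown, a log2 difference of 1.57 (SE 0.070, adjusted p 2.14e-17) from MC38, and Maff, a small partner protein of NRF2, differed by -2.66 (SE 0.16, adjusted p 1.53e-14). Keap1, at 58.2 and 67.8 CPM in B16, did not pass (0.21, SE 0.093, adjusted p 0.0512).

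Genes around the members also differed between the lines in both directions. Slc7a11 was at 75.0 and 69.2 CPM in the B16 knockdown (2.60, SE 0.12, adjusted p 1.89e-17). Prdx1, a peroxiredoxin, was at 1647 and 1569 CPM in B16 against 642 and 614 CPM in MC38 (1.40, SE 0.063, adjusted p 3.31e-17). Gstm1 and Mgst1 were higher in B16 by 2.93 and 5.44 on the log2 scale (adjusted p 1.32e-19 and 1.37e-21). Aldh1l1 was higher in B16 by 3.08 (adjusted p 2.19e-16), whereas Aldh3a2 was at 29.9 and 29.1 CPM there, a difference of -1.50 (adjusted p 1.10e-14).

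Several of these genes were nearly silent in 1 line. Suox, at 73.2 and 69.6 CPM in the MC38 knockdown, had 11 and 10 counts in the B16 knockdown libraries. Ptgr1, a reductase of reactive lipid aldehydes and a known NRF2 target, had 723 and 545 counts in MC38 and 1 and 3 counts in B16. Cyba, a subunit of superoxide-producing oxidases, had 491 and 415 counts in MC38 and 2 and 1 counts in B16. The reverse held for Ggt7, at 1 and 1 counts in MC38 and 112 and 115 CPM in B16, and for ceruloplasmin (Cp), at 2.11 and 2.79 CPM in MC38 and 876 and 851 CPM in B16. Sod3, the extracellular superoxide dismutase, was lower in B16 by 3.79 on the log2 scale, Ugdh by 1.78 and Ada, an adenosine deaminase, by 1.68, while Sesn3 and Tfrc were higher by 1.43 and 0.95.

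The genes most like a member across the 5 group means of log2 CPM were sought among 10222 genes, by Euclidean distance after each gene was centred on its own mean. The 5 points of a gene share libraries and a line, so a short distance is a description and has no p. The nearest to Xdh were Ddah2 (distance 0.31), Grtp1 (0.32) and Serpinb6b (0.35). For Aldh3a1 they were Vldlr (0.39), Galnt18 (0.45) and Fbxl16 (0.49). Gsto1 was closest to Xylb (0.17), AW046200 (0.19) and Dhrs1 (0.19). Glrx was closest to Rps10 (0.19), Zfas1 (0.19) and Rpl23a (0.21), of which Rps10 and Rpl23a encode ribosomal proteins. Gclm had Socs7 (0.02), Rbm45 (0.03) and Ehmt1 (0.06) nearest, and Txnrd1 had Ndufb6 (0.05), March5 (0.08) and Ccne1 (0.08). No other member was among the 3 nearest of these 6.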

How the data were processed

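Total RNA of cultured cells was made into messenger RNA libraries and sequenced from both ends, per the labels' protocols. The authors deposited 1 table of raw counts per gene and library. Per the submitters' processing notes, the tools included HISAT2 2.0.5, featureCounts, HTSeq, Trimmomatic and DESeq2, and the build was GRCm39. The strand setting and annotation release are not given. The table has 60676 rows, 57180 with Ensembl identifiers and 3496 named XLOC, and 51884 were matched to a symbol.

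Values of single libraries are counts per 1000000 counts of the library (CPM). CPM per kb uses exon lengths of another annotation release than that of the counts. The test was the 2-sided robust quasi-likelihood test of edgeR 4.0.16 (R 4.3.3) after filterByExpr and TMM, with Benjamini-Hochberg adjustment over all genes tested and a threshold of 0.05. The 6 MC38 libraries shared 1 fit, the 4 B16 libraries another, and comparisons across lines used all 10. The code was tested on simulated data. SEs come from the fit.

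The members and lists were chosen with earlier results of these data known. Of 179 listed names 177 were matched. Text names all members, per list the 3 called genes with the smallest adjusted p (2 between lines), and for called members the 3 nearest patterns among genes with a mean of at least 5 CPM. Nfe2l2, Keap1, Slc7a11, Aox1, Glrx2, Glrx3 and the marker genes fall outside that rule and were chosen after their values were seen. The c30 value of G6pdx is outside it as well and is given beside its ect value. Alternatives were DESeq2 1.42.0, RLE factors, no filter, a minimum of 5 CPM in 2 libraries, a replicate block, leaving out each library, and other sets of libraries in the fit. Figures used matplotlib 3.10.9.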

Additional observations from a re-analysis of the deposited data

Results flagged for a closer look

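Idh1, the NADPH-producing isocitrate dehydrogenase, differed between the B16 effect of wild-type Sdc1 and the MC38 effect of c30 by 0.51 on the log2 scale (SE 0.098, adjusted p 0.0148, edgeR's quasi-likelihood test of the difference over all 10 libraries). The MC38 effect was -0.46 and the B16 effect 0.05 (SE 0.086). Idh1 had already been named for that MC38 value, which enters the difference. It was the 1 gene that passed of 149 listed genes tested, or 0.671%, beside 0.284% of all genes. Line and form of Sdc1 differ together here and cannot be told apart. The difference was called in 7 of 13 settings and kept its sign in 13. It was lost without any 1 of the knockdown and c30 libraries of MC38 or of the knockdown libraries of B16, with values between 0.45 and 0.58 over all settings and adjusted p up to 0.137.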

How the results depend on the processing

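No value changed direction past the threshold under the alternatives run. With DESeq2 the calls among listed pathway genes numbered 10 with c30 and 10 with ect, those among members 3 with ect and 0 between c30 and ect. With all 10 libraries in 1 fit, listed genes gave 3 calls with c30 and 5 with ect, and members 3 with ect and 0 between c30 and ect. Without a filter on low counts, 2 listed genes differed between the B16 and MC38 effects. Leaving out 1 library at a time gave 2 to 4 members and 4 to 15 listed genes with c30, 3 to 5 members and 9 to 17 listed genes with ect, and 0 to 1 members between c30 and ect. In B16 it gave 0 to 1 members and 0 to 15 listed genes, and for the difference of effects 0 to 2 members and 0 to 11 listed genes. An arm with 1 library is assumed there to vary like the other groups. The cause of these shifts was not tested. Of the 10 members' single values under alternatives, 611 of 650 moved by no more than 1 SE of the fit, whereas 28 of 132 counts of calls moved by over 1.5 times, or from or to 0.

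The labels do not say whether same-numbered libraries share a batch. The correlations of replicate differences ran from -0.051 to 0.017 over group pairs. They were taken over all genes kept by the filter, so they cannot exclude a batch that touched part of the genes. A replicate block gave 4 members and 18 listed genes with c30 and 5 and 19 with ect, as without it. Depth limits Aldh3a1 in B16 (0 to 5 counts) and Glrx.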
